A study of Mus musculus with 19 samples.

Results

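Solute carriers (SLC genes) encode membrane proteins that move amino acids, sugars, ions, metals, vitamins and metabolites across the plasma membrane and the membranes of organelles. The carriers of brain myeloid cells were followed here across 3 sorted populations. A member was any gene of the sorted-cell table that reached a value of 1 in 3 or more libraries, with a symbol of Slc and a digit, except 11 carriers that were set aside by name. Of 210 such symbols in the data, 196 were members, among 13783 genes in all and 13086 genes tested. Another 7 passed the filter but belonged to the carriers set aside, and 7 fell below it. Just inside the filter, with 3 libraries at 1 or more, lay Slc13a2, Slc16a9, Slc24a1, Slc35g2, Slc4a3 and Slc9a3r2, and just outside it, with 2, lay Slc18a1, Slc46a2, Slc52a3 and Slc6a13. Of the 196, 5 are named after a carrier without being one (Slc2a4rg-ps, Slc4a1ap, Slc7a6os, Slc9a3r1 and Slc9a3r2) and were counted with the carriers of other or unknown substrate.

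All mice were recipients of bone marrow after split-dose irradiation of the whole body with 1100 cGy, and all received 5000000 marrow cells depleted of T cells (TCD). Mice of the graft-versus-host disease (GVHD) groups also received 500000 T cells from spleen, and the TCD mice, which served as controls without GVHD, did not. On day 70, cells were sorted from brain as GVHD donor cells, labelled bone marrow derived macrophages (6 libraries), GVHD host microglia (4 libraries) and TCD host microglia (3 libraries). Whole hippocampus came from other mice on day 80, with 3 GVHD and 3 TCD libraries. Strain, sex, age, the sorting markers and whether animals were pooled are not given in the sources used here, so the p-values measure the spread between libraries, which may in part be technical. The irradiation and marrow graft were shared by every group, and no untransplanted brain was among the samples. Donor macrophages therefore differ from host microglia both in origin and in cell type label, and these cannot be told apart.

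In background, microglia settle in the brain before birth and take up glutamate, lactate, amino acids and ions from the tissue around them, and macrophages of marrow origin use many of the same transporter families. Many carriers work in pairs or complexes: the heavy chain Slc3a2 brings light chains such as Slc7a5 and Slc7a7 to the cell surface. Others sit in lysosomes, where they return amino acids, nucleosides and heme products to the cytosol, or in the inner mitochondrial membrane, where the Slc25 family exchanges nucleotides, phosphate and metabolites.

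The deposited values are normalised counts, and a level below is such a value unless it is said to be per kilobase of exon. Estimated depth was 7901523 to 35844768 reads in sorted libraries and 16673582 to 18546915 in hippocampus. Against their labels, the summed level of 10 microglia genes was 12915 to 18565 in donor libraries, 45734 to 55899 in GVHD host and 53381 to 64860 in TCD host libraries, and that of 10 marrow-derived macrophage genes 74063 to 103545, 3312 to 6663 and 2023 to 3913. The microglia gene Fcrls went against its sum, with means of 1633 in donor, 905 in GVHD host and 2049 in TCD host cells. Apoe, with a donor mean of 69531, made up most of the macrophage sum in donor libraries. Of 10 neutrophil genes, 9 were in the table and summed to 27.2 to 631 in donor, 1.68 to 21.0 in GVHD host and 3.26 to 115 in TCD host libraries; Ly6g was not among them, and their part in the carrier results was not tested.

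Among the carriers, 3 libraries stood apart before any comparison was made. GVHD donor libraries 1 and 5 were the highest pair of the 6 donor libraries in 83 of 196 carriers (42.3%, against 25.0% of all genes tested), and TCD host library 1 was the highest of its group in 124 (63.3%, against 42.0%). The same donor libraries were the lowest pair in 13.8% of carriers, against 25.7% of all genes tested. TCD host library 1 was the lowest of its group in 27.6%, against 43.0%. The amino acid carrier Slc38a10, chosen after its values were seen, stood at 287 and 278 in those donor libraries and at 555 in that TCD library, against 48.0 to 76.1 in the other donor libraries, 129, 96.5, 142 and 94.4 in GVHD host libraries and 80.5 and 104 in the other TCD libraries. In the same 3 libraries the deviation of a carrier from its group mean rose with the GC content of its exons. Spearman's rho was 0.43, 0.51 and 0.50 across the 196 carriers, as a description. Across 12905 genes it was 0.32, 0.35 and 0.36, so the trend was not particular to carriers. In the other donor and TCD libraries the deviation fell with GC content, in part because deviations from a group mean sum to 0. GVHD donor library 1 and TCD host library 1 share the API number of their titles with GVHD host library 1 alone. The main model adjusted for that number. GVHD donor library 5 carries the other API number, as do the remaining sorted libraries. In GVHD host library 1 rho with GC content was -0.03 across the carriers. The part of the API number in the pattern of the 3 libraries that stood apart was not tested. By its title TCD host library 1 is a TCD sample, but its description reads Syn, so its group is uncertain. For total counts of calls and for some of the carriers below, values are also given without these libraries. Class counts are given with them only.

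**Figure D1:**
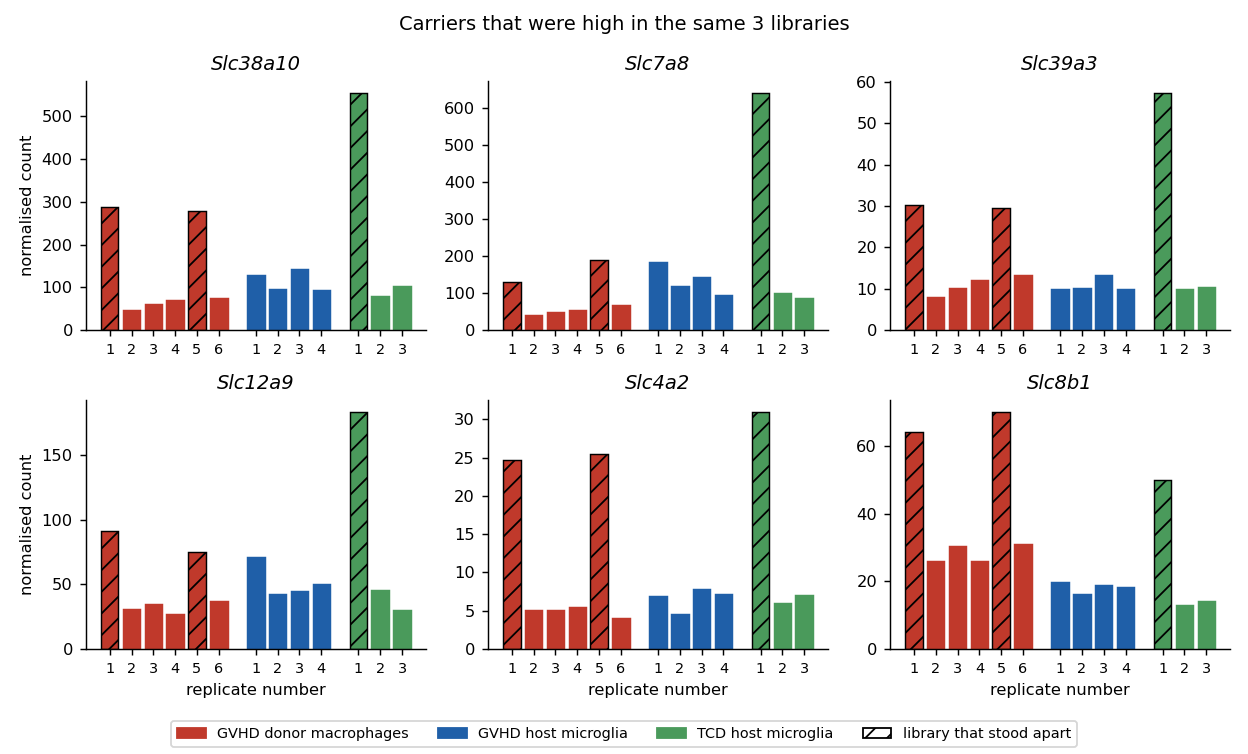
Normalised counts of 6 carriers in each of the 13 sorted libraries, in bars that start at 0, by group (colour) and replicate number. GVHD donor libraries 1 and 5 and TCD host library 1 (hatched) hold the highest bars of their groups, as in Slc38a10 with 287, 278 and 555. The 6 carriers were chosen after their values were seen.

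Between donor macrophages and GVHD host microglia, carriers of nearly every substrate class moved in both directions, with more of them lower in the donor cells. How far this set carriers apart from all genes depended on the scaling, as given below. By limma with Benjamini-Hochberg adjustment over all 13086 genes, 90 of 196 carriers passed an adjusted p of 0.05 (45.9%, against 38.6% of all genes tested). Of these, 35 were higher in donor cells (17.9%, against 19.4%) and 55 lower (28.1%, against 19.2%). The counts by class below are to be read beside these shares of all genes, and no class was tested. A change of at least 2-fold was called for 19 carriers upward and 23 downward, together 21.4% of the carriers, against 16.3% of all genes tested. Of the 35 higher calls, 5 (Slc7a2, Slc22a15, Slc22a18, Slc28a2 and Slc41a2) reached the filter only through donor libraries, and 9 of the 55 lower calls, Slc24a3 among them, only through host libraries. Such members had to differ, and their values are given as a description without p. The groups did not overlap in 71 carriers (36.2%, against 27.9%). The median log2 fold change was -0.02 over the carriers and 0.04 over all genes. Without the 3 libraries that stood apart, 34 of 191 carriers tested were higher and 59 lower. Of the carrier calls 36.6% were then higher, against 50.4% of all calls. Rescaling every library to the same total moved the median of all genes from 0.04 to -0.12, the carrier counts to 29 higher and 66 lower, and the share of higher calls among all called genes from 50.1% to 33.6%. Among called carriers that share went from 38.9% to 30.5%, nearer to that of all called genes. Directions of the carriers are to be read relative to that shift.

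**Figure D2:**
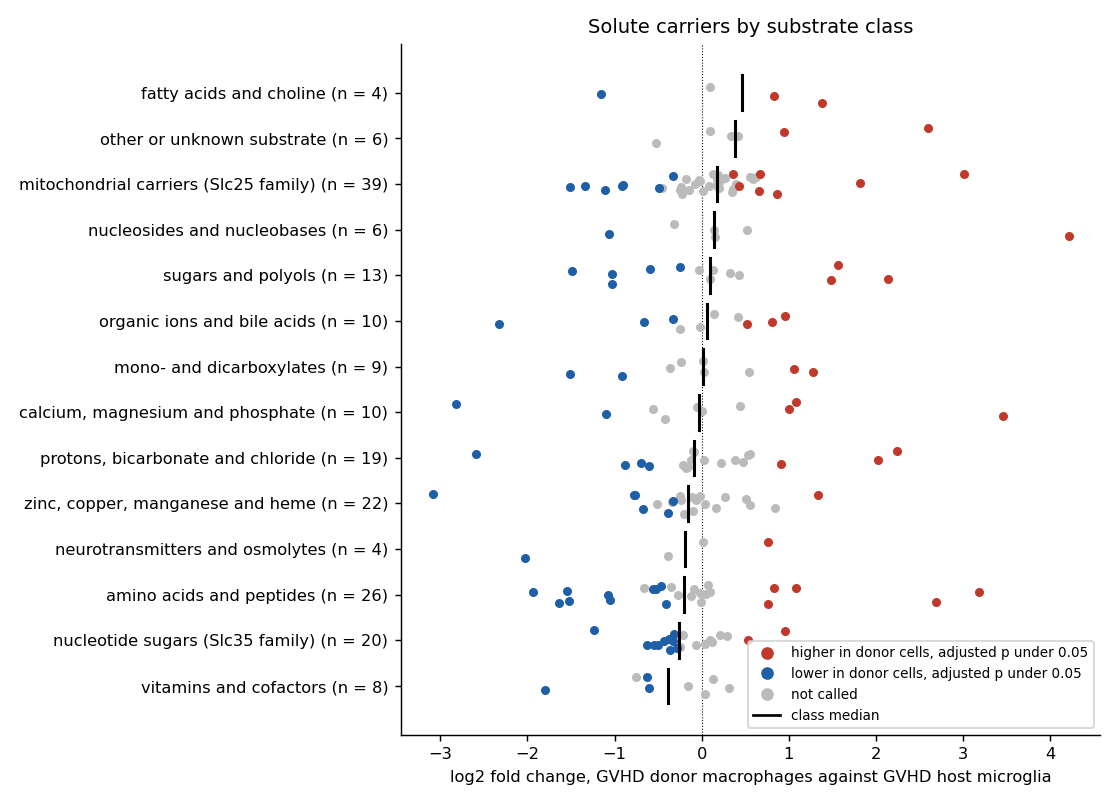
Log2 fold change of each of the 196 carriers between GVHD donor macrophages and GVHD host microglia (points), in rows by substrate class, with the class median as a black line. Red and blue points mark the 35 higher and 55 lower calls. Both colours appear in most classes, while vitamins and cofactors hold only blue and grey points.

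Amino acid and peptide carriers moved both ways: of 26, 5 were higher in donor cells, 10 lower and 11 not called (median -0.20). Among all genes tested, 19.4% were higher and 19.2% lower. The neutral amino acid exchanger Slc1a5 (ASCT2), the main route of glutamine into many cells, stood at 69.0 to 137 (median 94.1) in donor libraries, at 15.9, 5.69, 8.99 and 13.2 in GVHD host and at 17.0, 15.9 and 7.24 in TCD host libraries. Every donor library lay above every host library, and the log2 fold change against GVHD host cells was 3.18 ± 0.24 (SE), adjusted p = 4.67e-07. Its family member Slc1a4 (ASCT1), a carrier of serine, alanine and cysteine, went the other way, at 0.727 to 3.95 (median 2.47), at 4.72, 12.5, 12.05 and 8.62 and at 19.98, 6.88 and 9.66. All donor libraries lay below the host libraries, and it fell by 1.64 ± 0.38 (SE) on the log2 scale, adjusted p = 0.00403. Per kilobase of exon, the ratio of Slc1a5 to Slc1a4 was 21.2 to 89.3 in donor libraries, 0.428 to 3.17 in GVHD host and 0.706 to 2.18 in TCD host libraries.

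The same split ran through the cationic and large neutral amino acid carriers of the Slc7 family. Slc7a2 (CAT2), which supplies arginine to macrophages, was at 3.87 to 17.0 (median 6.57) in donor libraries, at 0.546, 0.632, 0.0637 and 0 in GVHD host and at 0, 0.181 and 0.121 in TCD host libraries. It stayed below 1 in every host library and became a member only through the donor libraries, with a log2 difference of 2.69 ± 0.31 (SE). Slc7a7 (y+LAT1), which exports arginine in exchange for neutral amino acids, was instead at 77.1 to 98.8 (median 93.1) in donor, 275, 247, 283 and 241 in GVHD host and 211, 254 and 257 in TCD host libraries. No donor library came near a host library (-1.52 ± 0.10 (SE), adjusted p = 1.08e-07). Slc7a5 (LAT1), the leucine carrier, was also lower in donor cells, at 2.81 ± 1.56 (SD, n = 6) against 9.57 ± 1.71 (SD, n = 4) (-1.54, adjusted p = 0.000326). Their shared heavy chain Slc3a2 was level: 533 ± 86.4 (SD, n = 6) in donor, 532 ± 45.3 (SD, n = 4) in GVHD host and 537 ± 64.2 (SD, n = 3) in TCD host cells, with a 95% interval of the log2 difference from -0.29 to 0.26. The cystine carrier Slc7a11, another partner of Slc3a2, was at 6.07 ± 5.49 (SD, n = 6) and 5.29 ± 1.52 (SD, n = 4) and was not called (adjusted p = 0.870).

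**Figure D3:**
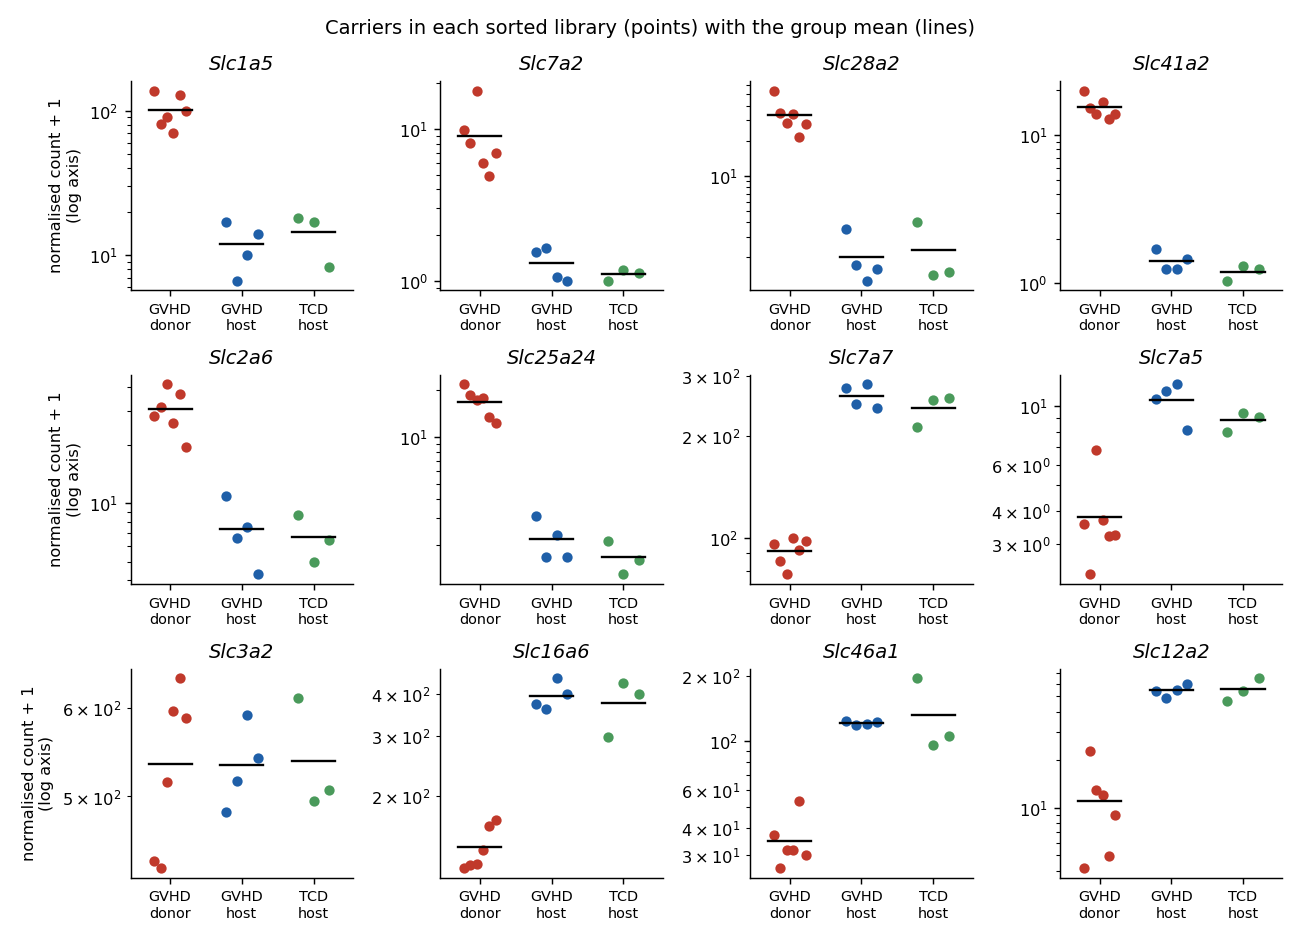
Normalised counts plus 1 of 12 carriers on log axes in each of the 13 sorted libraries (points), with the mean of each group as a line. Slc1a5, Slc7a2, Slc28a2, Slc41a2, Slc2a6 and Slc25a24 sit higher in all 6 donor libraries, Slc7a7, Slc7a5, Slc16a6, Slc46a1 and Slc12a2 lower, and Slc3a2 overlaps between groups (means 533, 532 and 537).

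Other plasma membrane amino acid carriers that fell in donor cells were Slc36a2, a proton-coupled carrier of glycine and proline (1.28 against 8.02, log2 -1.94), and, both named after their values were seen, the glycine carrier Slc6a9 (-1.08) and Slc43a1 (-1.05), which was at 0 in most donor libraries. The lysosomal amino acid carrier Slc36a1 and the glutamine carrier Slc38a1 were called as well (-0.53 and -0.41), but without the 3 libraries that stood apart their changes were -0.27 (adjusted p = 0.115) and -0.28 (adjusted p = 0.0548). Slc43a2 (LAT4) rose, from 40.3 to 71.8 (0.84, adjusted p = 0.00262), and without those libraries by 0.61 (adjusted p = 0.00248). Slc7a4 rose from 4.11 to 9.90 (1.09, adjusted p = 0.00403). Slc38a2, Slc38a9 (the lysosomal arginine sensor) and the endolysosomal peptide and histidine carriers Slc15a3 and Slc15a4 were not called, at log2 differences of -0.13, -0.35, 0.07 and 0.05. For Slc15a3 that difference was -0.39 (adjusted p = 0.0425) without the 3 libraries.

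Of 13 carriers of sugars and polyols, 3 were higher in donor cells and 5 lower. The hexose carrier Slc2a6 (GLUT6), which resides in lysosomes, ran at 18.7 to 40.4 (median 28.9) in donor libraries, at 9.95, 5.63, 6.56 and 3.29 in GVHD host and at 7.74, 3.98 and 5.43 in TCD host libraries, without overlap (2.14 ± 0.25 (SE), adjusted p = 1.88e-05). The high-affinity glucose carrier Slc2a3 (GLUT3) was at 9.86 to 19.9 (median 15.1), at 6.32, 4.17, 4.59 and 4.31 and at 11.98, 6.76 and 6.88. It lay above all GVHD host libraries (1.48, adjusted p = 2.06e-05), while TCD host library 1 reached into the donor range. Slc37a1, a glucose 6-phosphate antiporter of the endoplasmic reticulum, rose from 2.16 to 8.02 (1.57), whereas its relative Slc37a2, abundant in macrophages, was at 132 and 120.4 and not called (adjusted p = 0.585). The urate and hexose carrier Slc2a9 fell from 9.55 to 4.08 (-1.04, adjusted p = 0.00440). The ratio of Slc2a6 to Slc2a9 per kilobase was 6.78 to 23.5 in donor libraries and 0.715 to 2.39 in GVHD host libraries. The inositol carrier Slc5a3 was lower by call (-1.03, adjusted p = 0.0136), but at -0.68 (adjusted p = 0.0908) without the 3 libraries. Slc37a3, lower at -0.59, lost its call with the pairing of donor and host libraries of the same number in the model, at -0.55 (adjusted p = 0.0645).

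Monocarboxylate carriers, which move lactate, pyruvate and ketone bodies, split by gene. Of 9 carriers in the class of mono- and dicarboxylates, 2 rose and 2 fell, with the amino acid carrier Slc16a10 of the same family among the risers. Slc16a6 (MCT7), a ketone body carrier, was at 122 to 169.5 (median 131) in donor libraries against 373, 359, 444 and 398 in GVHD host and 297, 429 and 398 in TCD host libraries. The donor libraries lay far below both host groups (-1.51 ± 0.11 (SE), adjusted p = 4.14e-07). It ranked 7 among the 196 carriers by level per kilobase in both host groups and 21 in donor cells. Of its exon bases 22.5% lie opposite exons of Amz2 and Arsg. Slc16a1 (MCT1) was also lower (5.91 ± 1.12 (SD, n = 6) against 12.2 ± 2.92 (SD, n = 4), -0.91, adjusted p = 0.00143) and Slc16a7 (MCT2) higher (35.8 ± 2.76 (SD, n = 6) against 16.8 ± 1.95 (SD, n = 4), 1.06, adjusted p = 1.61e-05). The lactate exporter Slc16a3 (MCT4) was at 26.6 ± 15.3 (SD, n = 6) and 29.6 ± 6.47 (SD, n = 4) and was not called. Slc16a10, a carrier of aromatic amino acids, rose by 1.28 (adjusted p = 0.0165), with 1.28 (adjusted p = 0.0540) in the paired model.

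On the log2 scale of the fit, the largest rise of any carrier was that of Slc28a2 (CNT2), a sodium-coupled importer of purine nucleosides. It was at 20.7 to 52.9 (median 30.03) in donor libraries, at 2.48, 0.695, 0.255 and 0.567 in GVHD host and at 2.97, 0.401 and 0.483 in TCD host libraries. The lowest donor library exceeded the highest host library several-fold, for a log2 difference of 4.21 ± 0.17 (SE), though the gene passed the filter only through donor libraries. Of the sequence words in its transcripts, 39.8% are shared with Gm14085, a gene not in the table, so its own level is uncertain. The nucleobase carrier Slc43a3 fell (-1.06, adjusted p = 0.000360). The equilibrative nucleoside carriers Slc29a1, of the cell surface, and Slc29a3, of lysosomes, were abundant in all groups and not called, with Slc29a3 at 423 ± 129 (SD, n = 6) in donor and 539 ± 117 (SD, n = 4) in GVHD host cells.

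Of 19 carriers of protons, bicarbonate, chloride and sulfate, 3 were higher and 4 lower. The sodium, potassium and chloride importer Slc12a2 (NKCC1) was at 3.16 to 21.8 (median 9.55) in donor libraries, 53.2, 47.7, 54.0 and 58.9 in GVHD host and 46.0, 52.7 and 64.0 in TCD host libraries. All donor libraries lay below the hosts but differed several-fold among themselves (-2.59 ± 0.35 (SE), adjusted p = 7.84e-05). The potassium and chloride exporter Slc12a7 (KCC4) was higher by call (0.91, adjusted p = 0.0244), with its highest values in donor libraries 1 and 5: without the 3 libraries it was 0.42 (adjusted p = 0.0570). The sulfate carriers moved apart, with Slc26a11, found in lysosomal and plasma membranes, rising from 6.56 to 34.0 (2.25, adjusted p = 7.53e-06) and Slc26a2 falling from 77.2 to 40.8 (-0.88, adjusted p = 0.000149). The sodium and bicarbonate carrier Slc4a8 rose from 0.906 to 7.17 (2.02). Among sodium and proton exchangers, Slc9a7 of the Golgi fell (-0.60, adjusted p = 0.00574) and the endosomal Slc9a9 was not called (241 ± 36.4 (SD, n = 6) and 259.9 ± 20.9 (SD, n = 4)).

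For calcium, magnesium and phosphate, 3 of 10 carriers rose and 2 fell. The magnesium carrier Slc41a2 was at 11.8 to 18.9 (median 13.6) in donor libraries, 0.702, 0.253, 0.255 and 0.454 in GVHD host and 0.0433, 0.302 and 0.241 in TCD host libraries. All 7 host libraries held it below 1, so that it was a member only through the donor libraries, with a log2 difference of 3.46 ± 0.15 (SE). Its relatives Slc41a1 and Slc41a3 were not called (0.44 and 0.00). The sodium, calcium and potassium exchanger Slc24a3 did the reverse, at 0.0901 to 0.779 (median 0.309) against 8.11, 9.16, 7.46 and 9.42 and 6.45, 9.17 and 10.99. All 6 donor libraries held it below 1, so that it was a member only through host libraries, with a log2 difference of -2.83 ± 0.17 (SE). Slc8b1, the mitochondrial sodium and calcium exchanger, rose by 1.08, and without the 3 libraries by 0.64 (adjusted p = 0.00115). The phosphate importer Slc20a2 rose (1.00, adjusted p = 0.000480), and its relative Slc20a1 was not called (-0.05).

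Among all 196 carriers 55 were lower and 35 higher (28.1% and 17.9%), and among all genes tested 19.2% and 19.4%. Of 22 carriers of zinc, copper, manganese and heme, 6 were lower in donor cells and 1 higher. All 6 belong to the Slc39 (ZIP) family, which brings zinc and other metals into the cytosol and had 13 members tested. Of all carriers, 45.9% were called in either direction. Slc39a2, among the 6, passed the filter only through host libraries, and Slc39a10 lost its call in the paired model. Slc39a12 (ZIP12) was at 0.600 to 1.64 (median 1.14) in donor libraries, 12.02, 20.4, 25.6 and 12.1 in GVHD host and 22.7, 12.6 and 17.4 in TCD host libraries. By limma on log2 of the value plus 1 it had the largest fall of any carrier (-3.09 ± 0.24 (SE), adjusted p = 6.72e-07). That scale understates the change of lower carriers such as Slc24a3. Slc39a12 is known from astrocytes. Of 10 astrocyte genes, 8 were in the table and summed to 48.7 to 87.4 in donor and 339 to 449 in GVHD host libraries. In that sum Slc1a3 alone had means of 29.1 and 358, while Aldoc was at 15.3 and 14.0, Gfap at 16.3 and 6.01 and Aldh1l1 at 5.18 and 4.65; the part of astrocyte RNA in the result was not tested. Slc39a8 (ZIP8), a zinc and manganese carrier, fell from 41.9 ± 3.44 (SD, n = 4) to 24.1 ± 4.64 (SD, n = 6) (-0.77, adjusted p = 0.00233), and Slc39a1, which shares 21.98% of its sequence words with a pseudogene, fell by 0.67 ± 0.14 (SE) on the log2 scale. None of the 6 zinc exporters of the Slc30 family was called by limma, nor were the copper carriers Slc31a1 (-0.25) and Slc31a2 (0.17). The lone riser was Slc48a1 (HRG1), which moves heme out of phagolysosomes, at 51.3 to 140.3 (median 59.7) in donor libraries and 26.997, 30.5, 29.6 and 31.8 in GVHD host libraries. The highest donor values were in libraries 1 and 5, TCD host library 1 reached 76.3, and without those 3 libraries the rise was 0.86 (adjusted p = 3.45e-05).

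Of 8 carriers of vitamins and cofactors, 3 were lower in donor cells and none higher, beside 19.2% and 19.4% of all genes tested. The folate and heme carrier Slc46a1 (PCFT) was at 25.1 to 52.4 (median 30.5) in donor libraries, 123, 118, 119 and 122 in GVHD host and 194, 95.5 and 104 in TCD host libraries. GVHD host libraries were nearly identical, and the change in log2 was -1.80 ± 0.19 (SE), adjusted p = 9.08e-06. The lysosomal Slc46a3 fell from 252 ± 8.36 (SD, n = 4) to 169 ± 28.2 (SD, n = 6) (-0.61, adjusted p = 0.000697), and Slc33a1, which brings acetyl-CoA into the endoplasmic reticulum, from 70.3 ± 5.81 (SD, n = 4) to 45.2 ± 3.12 (SD, n = 6) (-0.62, adjusted p = 8.88e-05). The reduced folate carrier Slc19a1 and the vitamin C carrier Slc23a2 were not called (-0.16 and 0.04); without the 3 libraries Slc23a2 was at -0.44 (adjusted p = 0.0152).

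Smaller classes are given by their leading members. The taurine carrier Slc6a6 was at 373 to 492 (median 409.7) in donor libraries against 279, 248, 246 and 234 in GVHD host and 313, 211 and 224 in TCD host libraries, without overlap (0.76 ± 0.09 (SE), adjusted p = 1.48e-05). The vesicular polyamine carrier Slc18b1 went down, from 18.02 ± 4.72 (SD, n = 4) to 3.53 ± 1.21 (SD, n = 6) (-2.03, adjusted p = 6.99e-05). Of the choline carriers, Slc44a1 rose (1.38, adjusted p = 6.06e-05) and Slc44a2 fell (-1.16, adjusted p = 0.000301). Among 10 carriers of organic ions and bile acids, 3 rose and 3 fell, led by Slc22a17, a receptor of lipocalin 2, at 2.60 to 3.95 (median 2.97) in donor libraries against 22.1, 20.7, 17.3 and 17.7 in GVHD host libraries. Its donor and host ranges lay well apart (-2.33, adjusted p = 1.48e-07). The urea carrier Slc14a1 rose from 3.55 ± 0.994 (SD, n = 4) to 26.5 ± 7.24 (SD, n = 6) (2.60, adjusted p = 4.23e-06).

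The Slc35 family carries nucleotide sugars and related substrates into the Golgi and endoplasmic reticulum for glycosylation. Of 20 members, 10 were lower in donor cells and 2 higher (median -0.27), mostly by small amounts. Among all genes tested, 19.2% were lower and 19.4% higher. The largest fall was that of Slc35e3, from 11.8 ± 0.885 (SD, n = 4) to 4.75 ± 1.498 (SD, n = 6) (-1.23, adjusted p = 0.000136). It shares 19.5% of its sequence words with Gm7902, a gene not in the table, so its own level is uncertain. The carrier of CMP-sialic acid, Slc35a1, was at 32.2 ± 3.40 (SD, n = 6) against 41.6 ± 1.496 (SD, n = 4) (-0.38, adjusted p = 0.00875), and that of the sulfate donor PAPS, Slc35b2, at 112 ± 27.2 (SD, n = 6) against 158 ± 20.4 (SD, n = 4) (-0.50, adjusted p = 0.0237). In the paired model these read -0.34 (adjusted p = 0.0640) and -0.41 (adjusted p = 0.0547), and the calls of Slc35b1, Slc35b3, Slc35b4, Slc35e2 and Slc35g2 were also lost there.

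Of 39 mitochondrial carriers of the Slc25 family 7 rose, 7 fell and 25 were not called (median 0.17). Slc25a24, a calcium-regulated exchanger of ATP-magnesium for phosphate, was at 11.3 to 20.9 (median 16.6) in donor libraries, 2.11, 0.695, 1.34 and 0.681 in GVHD host and 1.12, 0.302 and 0.604 in TCD host libraries, without overlap (3.01 ± 0.17 (SE), adjusted p = 3.75e-08). The dicarboxylate carrier Slc25a10 rose from 9.57 ± 3.52 (SD, n = 4) to 35.3 ± 10.8 (SD, n = 6) (1.82, adjusted p = 9.65e-05). Its donor values were highest in libraries 1 and 5, at 47.6 and 50.4 against 24.8 to 30.6 in the others. The NAD carrier Slc25a51 and the aspartate and glutamate carrier Slc25a12 rose by 0.86 and 0.67. The mitochondrial iron importer Slc25a37 (mitoferrin 1) fell from 47.7 ± 11.4 (SD, n = 4) to 16.6 ± 4.05 (SD, n = 6) (-1.51, adjusted p = 5.68e-05). Slc25a45 fell from 365 ± 33.4 (SD, n = 4) to 192 ± 21.8 (SD, n = 6) (-0.90, adjusted p = 2.32e-06). The ADP/ATP carrier Slc25a5 was the most abundant carrier per kilobase of exon in all 3 groups, at 504, 608 and 596, ahead of Slc3a2 in the donor and GVHD host cells. It was called lower at -0.33 (adjusted p = 0.0465), but at -0.25 (adjusted p = 0.0515) without the 3 libraries. Its transcripts share 46.7% of their sequence words with a pseudogene, so that level is uncertain.

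Of 34 carrier families with at least 2 members, 14 held members called in both directions, 13 in one direction only, and 7 had none called (Slc13, Slc15, Slc17, Slc19, Slc29, Slc30 and Slc31). No such count was made for families of other genes, and 38.6% of all genes tested were called. The riser and the faller of a pair can be set against each other within a library, where the scaling of that library cancels. Per kilobase, Slc26a11 over Slc26a2 was 1.62 to 4.60 in donor and 0.175 to 0.400 in GVHD host libraries, and Slc44a1 over Slc44a2 was 0.204 to 0.451 and 0.0324 to 0.0676. For Slc43a2 over Slc43a3 the ratios were 5.09 to 15.5 and 1.33 to 2.89. Since the pairs were made from the calls of this comparison, the ratios are a description.

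**Figure D4:**
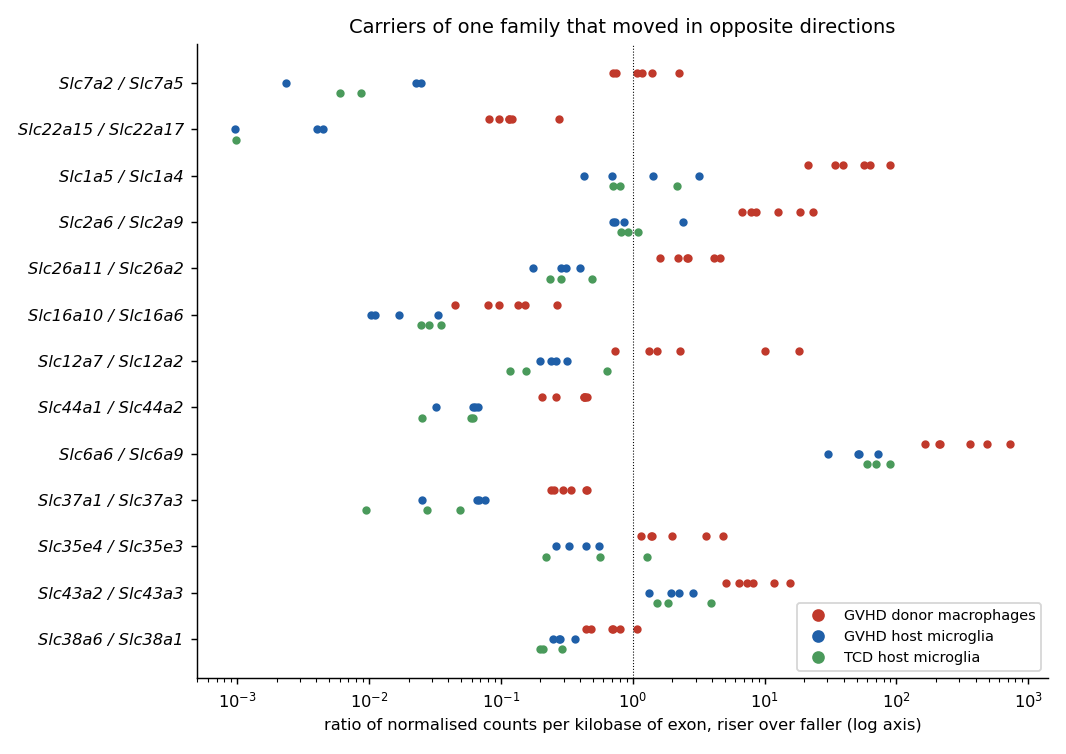
Ratio of the levels per kilobase of exon of a riser and a faller of the same family in each sorted library (points, log axis), for 13 pairs. Donor ratios (red) lie to the right of GVHD host ratios (blue), as for Slc1a5 over Slc1a4 with 21.2 to 89.3 against 0.428 to 3.17. Ratios of 0 are not drawn.

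Promoters were searched for letters that members moving together might share. RefSeq gave a start site on GRCm38.p6 for 151 of the 196 members, and 250 bases before it were searched on both strands. The E-box CACGTG, the letters bound by factors of the MYC, USF and TFEB type, was in 20 of the 151 (13.2%), against 6.02% of 32851 promoters. It was in 7 of 43 promoters of members lower in donor cells, 0 of 20 of those higher and 13 of 88 of those not called. Other letters searched were the PU.1-like GAGGAAG (16 of 151, 10.6%, against 10.6%), the AP-1 site TGANTCA (10, 6.62%, against 6.75%) and the C/EBP-like TTGCNNAA (8, 5.30%, against 9.56%). A match is a description of letters only. The 32851 promoters outnumber the 13783 genes of the sorted-cell table, so they include genes outside it, several entries per gene, or both. The members had all passed the expression filter, so the paired shares are of unlike sets. No share was taken over other genes that passed that filter. The E-box share therefore does not set carriers apart from such genes. The 7 falling members with an E-box are shown to let the flanks be compared, up to 20 bases on either side, 5′ to 3′ on the strand of the gene, with the E-box in capitals:
Slc35e3: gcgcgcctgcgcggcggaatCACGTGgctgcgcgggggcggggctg
Slc25a31: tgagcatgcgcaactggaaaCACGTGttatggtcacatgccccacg
Slc43a1: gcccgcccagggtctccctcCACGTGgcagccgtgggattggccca
Slc16a1: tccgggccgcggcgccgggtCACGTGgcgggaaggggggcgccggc
Slc33a1: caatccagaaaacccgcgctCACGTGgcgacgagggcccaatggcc
Slc37a3: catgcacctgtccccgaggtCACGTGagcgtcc
Slc36a1: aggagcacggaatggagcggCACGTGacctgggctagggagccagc

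Their coordinates on GRCm38.p6 are, in the same order, chr10:117746413-117746458 (minus strand), chr3:40708758-40708803 (plus strand), chr2:84840239-84840284 (plus strand), chr3:104638444-104638489 (plus strand), chr3:63964833-63964878 (minus strand), chr6:39377708-39377740 (minus strand) and chr11:55204289-55204334 (plus strand). The E-box began 13 bases (Slc37a3) to 200 bases (Slc16a1) before the start site. In all 7, every donor library lay below every GVHD host library. Since the 7 were taken from the lower calls of this comparison, that is a description only. The groups did not overlap in 36.2% of carriers and 27.9% of all genes tested. Slc25a31 and Slc43a1 passed the filter only through host libraries, and the calls of Slc36a1 and Slc37a3 were lost in the settings given above. For contrast, the 250 bases before the start of the member with the largest rise and of that with the largest fall hold none of the 4 motifs. They are given in lower case throughout, Slc28a2 from chr2:122426185-122426434 (plus strand) and Slc39a12 from chr2:14388148-14388397 (plus strand):
Slc28a2: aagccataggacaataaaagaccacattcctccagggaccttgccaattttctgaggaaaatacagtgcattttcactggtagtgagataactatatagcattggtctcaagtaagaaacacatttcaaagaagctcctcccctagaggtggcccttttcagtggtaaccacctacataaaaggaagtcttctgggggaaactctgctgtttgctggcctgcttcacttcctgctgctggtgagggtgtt
Slc39a12: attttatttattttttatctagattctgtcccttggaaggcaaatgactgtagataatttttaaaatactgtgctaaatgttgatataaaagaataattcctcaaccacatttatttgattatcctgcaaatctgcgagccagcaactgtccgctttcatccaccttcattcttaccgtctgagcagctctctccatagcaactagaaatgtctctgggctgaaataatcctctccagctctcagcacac

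Set against TCD host microglia, 31 carriers were higher in donor cells (15.8% of 196, against 18.4% of all genes tested) and 55 lower (28.1%, against 18.6%), together 43.9% against 37.0%. The comparison shares its 6 donor libraries with the first, so the values are given side by side only. For Slc28a2 the log2 fold change was 4.18 beside 4.21, for Slc1a5 2.96 beside 3.18, for Slc7a7 -1.40 beside -1.52 and for Slc39a12 -3.12 beside -3.09. Metal carriers had 9 of 22 lower and 2 higher, vitamin carriers 4 of 8 lower and none higher, and Slc35 carriers 8 of 20 lower and none higher. With a block by title number in the model, which joins donor and TCD host libraries of different mice, 25 carriers were higher and 48 lower. Of the carrier calls 34.2% were then higher, against 52.6% of all calls. Metal carriers had 7 lower and 1 higher, vitamin carriers 4 lower and Slc35 carriers 5 lower. Slc20a2 and Slc16a10, which rose against GVHD host cells, were not called against TCD host cells (0.32, adjusted p = 0.219, and 0.62, adjusted p = 0.279). No test was made of the difference between these comparisons other than that of the host groups, below. The thiamine carrier Slc19a2 was lower than in TCD host cells (-1.37, adjusted p = 0.00545), at 2.85 ± 1.32 (SD, n = 6) against 9.53 ± 1.62 (SD, n = 3). Without TCD host library 1, 33 of 192 carriers were higher and 47 lower. Without all 3 libraries that stood apart, 38 of 191 were higher and 56 lower.

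GVHD and TCD host microglia did not differ in any carrier by limma after adjustment: 0 of 196 were called, against 0.107% of all genes tested (14 of 13086), and the lowest adjusted p was 0.178. At an unadjusted p under 0.05 there were 15 carriers, 7.65% against 6.85% of all genes tested, of which 13 were lower in GVHD host cells and 2 higher. The 95% interval of the log2 difference lay within -1 to 1 for 164 of the 196, with a median half-width of 0.46. The groups did not overlap in 10 carriers (5.10%, against 6.55%). Named after their values were seen, the smallest p belonged to the sugar carrier Slc5a10, at 1.08, 2.09, 3.84 and 1.59 in GVHD host and 6.10, 3.92 and 4.95 in TCD host libraries, and 0 to 0.147 (median 0.0970) in donor libraries. All GVHD host values lay below all TCD host values (-0.99 ± 0.25 (SE), adjusted p = 0.178), and 16.8% of its exon bases lie opposite exons of other genes. Slc20a2 was at 4.41, 2.46, 2.87 and 2.72 and 7.14, 5.67 and 4.59 (-0.68, adjusted p = 0.337), and Slc2a3 at 6.32, 4.17, 4.59 and 4.31 and 11.98, 6.76 and 6.88 (-0.63, adjusted p = 0.432). The groups did not overlap in either, and the highest Slc2a3 value was that of TCD host library 1. Without that library no carrier was called either, and the median difference over the carriers went from -0.06 to -0.00.

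**Figure D5:**
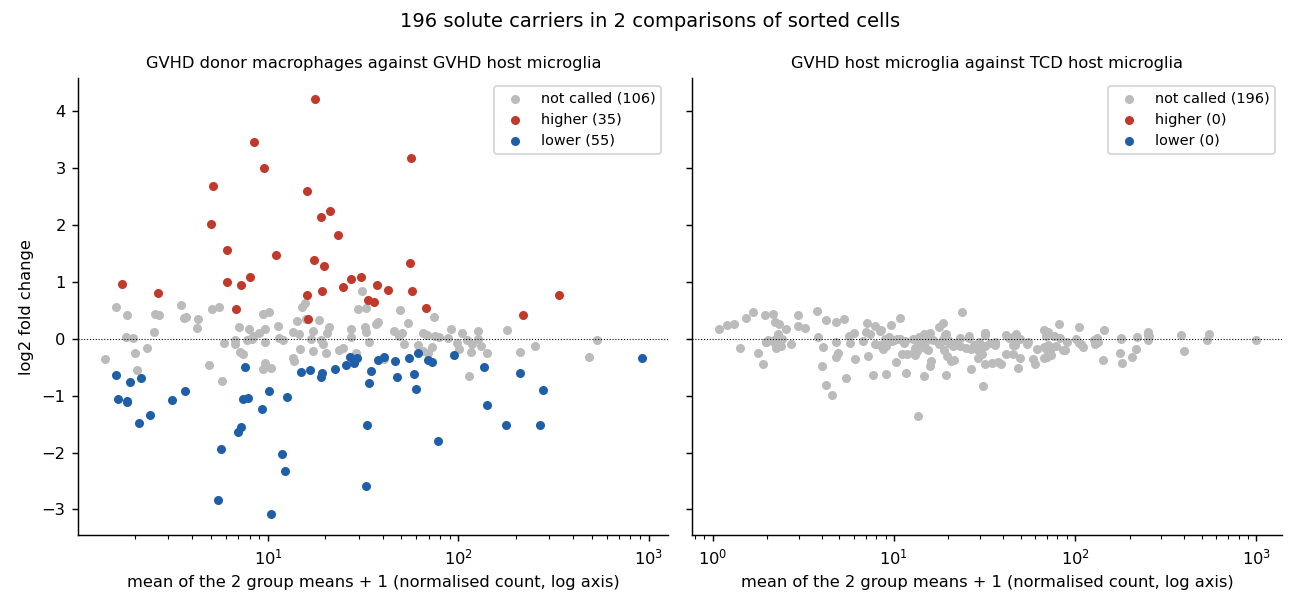
Log2 fold change of the 196 carriers against the mean of both group means plus 1 (normalised count, log axis), for donor macrophages against GVHD host microglia (left) and GVHD against TCD host microglia (right). On the left 35 points are called higher (red) and 55 lower (blue), and on the right all 196 are grey, with values from -1.35 to 0.48.

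In whole hippocampus, 184 of the carriers were in the table and 181 were tested. None was called by limma (0 of 181, against 0.479% of all genes tested), with a lowest adjusted p of 0.0530. At an unadjusted p under 0.05 there were 32, or 17.7% against 17.0%, of which 17 were higher and 15 lower in GVHD. The groups did not overlap in 51 carriers (28.2%, against 24.0%). In a bulk tissue, fewer cells of a type and less RNA per cell cannot be told apart, and carriers of myeloid cells are diluted by those of neurons and glia. The choroid plexus epithelium expresses many carriers, and the summed level of its 10 markers was 1076 to 3766 in GVHD and 30.7 to 110 in TCD libraries. Chosen after their values were seen, the anion exchanger Slc4a2 was at 59.2, 30.2 and 64.5 in GVHD and 19.5, 24.1 and 21.4 in TCD libraries (1.14 ± 0.25 (SE), adjusted p = 0.0812), and the zinc importer Slc39a4 at 3.08, 1.31 and 4.34 and 0.174, 0.356 and 0.122 (1.60, adjusted p = 0.0643). Slc12a2 was at 116, 96.2 and 134 and 62.8, 83.4 and 65.1 (0.70, adjusted p = 0.0698), and Slc31a1 at 45.3, 27.9 and 55.4 and 20.8, 24.1 and 22.8 (0.85, adjusted p = 0.110). In all 4, every GVHD library lay above every TCD library, and GVHD library 2 was the lowest of its group. The part of choroid plexus RNA in these differences was not tested. The smallest adjusted p belonged to the mitochondrial carrier Slc25a23, at 385, 399 and 364 in GVHD and 530.0, 517 and 485 in TCD libraries (-0.41 ± 0.07 (SE), adjusted p = 0.0530). The summed level of 10 neuron markers was also lower in GVHD, at 10522.5 to 10718.6 against 11736 to 13813.7, without overlap. In that sum Camk2a had means of 3224 in GVHD and 4444 in TCD. Gad1 (421 and 359), Gad2 (258 and 222) and Snap25 (2331 and 2268) went the other way. The total value of a library was lower in GVHD as well, at 982114 to 988044 against 1019598 to 1078636. The part of neuron RNA or of scaling in the difference of Slc25a23 was not tested.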

How the data were processed

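RNA was measured in 13 libraries of sorted brain myeloid cells and 6 of hippocampus. Per the submitters' processing notes, the authors used cutadapt 1.9, STAR 2.5.2a and RSEM 1.2.30 on GRCm38, with no role or annotation release given. The signal deposited by the authors is a table of normalised counts per gene, with a scaling method not given in the sources used here. Values were multiples of a hundredth of the estimated worth of 1 read, so whole counts were not recovered and no count test was run. Intervals reflect the spread between libraries. Symbols, exon length and GC came from a GENCODE annotation of GRCm38, in which 213 identifiers of the sorted-cell table and 192 of the hippocampus table had no match.

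Groups came from the titles. Values were taken as log2 of the value plus 1, a scale that understates changes of low genes. Genes with a value of 1 or more in at least 3 libraries entered a two-sided limma fit (version 3.58.1, R 4.3.3) that let the variance follow the mean level, with Benjamini-Hochberg adjustment over all genes tested, 13086 in sorted cells and 14404 in hippocampus. One model held the 3 sorted groups and adjusted for the API number (183 or 197) in the sample titles, and the hippocampus model held the groups only. Calls required an adjusted p under 0.05. The script was tested on simulated data. Classes are described by counts and medians, with no test.

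The carriers, their classes and the lists were chosen with earlier results of these data known. Named carriers were the up to 3 largest rises and falls of each class, a list of carriers with roles in macrophages or microglia, and the most abundant per kilobase. Slc38a10, Slc39a3, Slc12a9, Slc4a2, Slc6a9, Slc43a1, Slc41a1, Slc41a3, Slc39a4, Slc25a23 and carriers listed by family or by lost call were named after their values were seen. The 5 genes named after a carrier were put in their class after the tables were read. Donor and GVHD host libraries with the same API and description number deviated together (r 0.44, 0.42, 0.19 and 0.30 for the 4 pairs, and -0.38, 0.19, 0.48 and 0.10 after adjustment for the API number) and were treated as paired in an alternative. So were donor and TCD host libraries with the same title number (r 0.62, 0.35 and 0.49 for the 3 pairs, and -0.39, 0.00 and 0.25 after that adjustment). Those libraries come from mice of different transplant groups, so a shared title number does not mark the same animal. What the number stands for is not given, and its block is a check of the fit only. Title numbers did not pair donor and GVHD host libraries (r down to -0.05).

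Alternatives covered the pseudocount (0.5 and 5), the filter (5, and none), rescaling to equal totals or upper quartiles, quantile normalisation, no trend, array weights, the API covariate, API 197 libraries only, replicate blocks, each comparison's groups alone, a GC correction, a 2-fold minimum and leaving out each library. Leaving out the 3 libraries that stood apart together was added after seeing the data. GVHD host library 1 was then the only library of API number 183 and was fitted exactly, so it added nothing to the differences.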

Additional observations from a re-analysis of the deposited data

Results flagged for a closer look

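Of 110 named carriers in the donor and GVHD host groups (220 groups of 4 or 6 libraries), 9 had a library far from the rest of its group by Dixon's criterion, where chance gives about 1 in 20 groups. In donor cells these were Slc7a11 in library 3 (17.2, next highest 4.68), Slc25a4 in library 1 (154.5, next lowest 190.2), Slc16a1 in library 5 (3.90, next lowest 5.75) and Slc39a1 in library 6 (9.43, next lowest 13.1). In GVHD host microglia they were Slc25a5 in library 1 (639.1, next lowest 1081), Slc9a9 in library 1 (291.1, next highest 252.8), Slc37a1 in library 2 (0.885, next lowest 2.496), Slc33a1 in library 4 (61.7, next lowest 72.0) and Slc39a8 in library 4 (36.8, next lowest 43.5).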

How the results depend on the processing

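Of the carriers called against GVHD host microglia, 54 of 90 were called in each of 29 alternatives other than the 2-fold minimum, and against TCD host microglia 52 of 86. With the 2-fold minimum, 19 carriers were higher and 23 lower in donor than in GVHD host cells, and 18 and 23 in donor than in TCD host cells. Leaving out 1 library at a time gave 31 to 37 higher and 45 to 60 lower against GVHD host cells and 22 to 33 higher and 41 to 59 lower against TCD host cells. Between the host groups it gave 0 higher and 0 to 1 lower (1 without GVHD host library 3), and in hippocampus 0 to 2 higher (2 without GVHD library 2) and 0 to 1 lower (1 without TCD library 3). Without the 3 libraries that stood apart, an alternative chosen after seeing the data, Slc15a3 went from 0.07 to -0.39 and Slc23a2 from 0.04 to -0.44 (log2, donor against GVHD host), both being high in those libraries.

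With a replicate block by the number of the description, which pairs donor and GVHD host libraries, 33 carriers were higher and 42 lower, with 15 calls lost and 0 gained. The same block gave 27 and 38 against TCD host cells, where it joins libraries of different mice that share a number. Those did not all deviate together, with r of 0.62, 0.18 and -0.57, and -0.39, -0.24 and -0.46 after adjustment for the API number. A replicate block by title number joins donor and TCD host libraries of different mice. It gave 25 and 48 against TCD host cells, with 15 calls lost and 2 gained, and 30 and 50 against GVHD host cells, which it does not pair. Between the host groups, and in hippocampus with the title number, the replicate block gave 0 calls. Within the larger API group, 31 of 190 carriers were higher and 43 lower against GVHD host cells, and the smaller API group had too few libraries for a test.

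Low carriers rest on few reads, since 1 read was worth an estimated 0.0300 to 0.121 in sorted libraries. Slc39a7, Slc38a6, Slc22a5, Slc22a21, Slc39a1 and Slc35e3 share transcript sequence with other genes, so their levels are uncertain.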
